A study of Mus musculus with 90 samples.

Results

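Among 90 melanoma allografts, 52 are called growing tumours here: 22 given a normal control IgG, 23 labelled as non-responders to an antibody against PD-L1, and 7 given the vehicle PBS. The control IgG and PBS labels themselves say nothing of growth. The matrix-rich and matrix-poor tumours described here are the 13 with the highest and the 13 with the lowest matrix score among 51 of these, 1 array per tumour, so 26 of 90 arrays in all. The score is the mean log2 value of Col1a1, Col3a1 and Col6a2, genes of the main chains of collagens I, III and VI, each read from its brightest probe set. A growing tumour with a Glycam1 value of 8 or more, a gene of lymph node vessels, had been left out. The groups were chosen by the measured values of these score genes, so those values are a description and enter no test.

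All tumours carried the genotype Hgftg;Cdk4R24C/R24C, a transgene for hepatocyte growth factor with a Cdk4 knock-in that resists its inhibitor, in B6.cBrd mice; these alleles are shared by both groups. NonResponder tumours had received anti-mouse PD-L1 mIgG1 D265A at 10 mg/kg and were taken while growing, at times matched to shrinking tumours. Control IgG was also dosed at 10 mg/kg, and PBS at 10 ml/kg. The age of the mice and the tumour volume at harvest are not given in the labels used here. Nothing says that each array came from a separate mouse. The p-values treat the arrays as independent, which could not be checked.

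Tumour stroma is built largely by fibroblasts, which secrete fibrillar collagens, proteoglycans and glycoproteins and crosslink them with lysyl oxidases. Collagen I fibres form from chains of Col1a1 and Col1a2, and collagen VI filaments from chains of Col6a1, Col6a2 and Col6a3. Macrophages, vessels and lymphatics share this compartment, and in transplanted tumours it borders on skin, fat and muscle of the host.

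The matrix score spanned 10.60 to 12.69 in matrix-rich tumours (median 10.79) and 6.90 to 9.12 in matrix-poor tumours (median 8.64). At the upper limit the last tumour inside had a score of 10.60 and the first one outside also 10.60; at the lower limit these were 9.12 and 9.22, so the limits lie in a continuous range. A single array stood apart at each end: control IgG replicate 7 at 12.69, with the next at 11.50, and NonResponder replicate 11 at 6.90, with the next at 7.86. Col1a1 itself ranged from 9.36 to 11.82 in matrix-rich and from 6.12 to 8.19 in matrix-poor tumours.

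**Figure D1:**
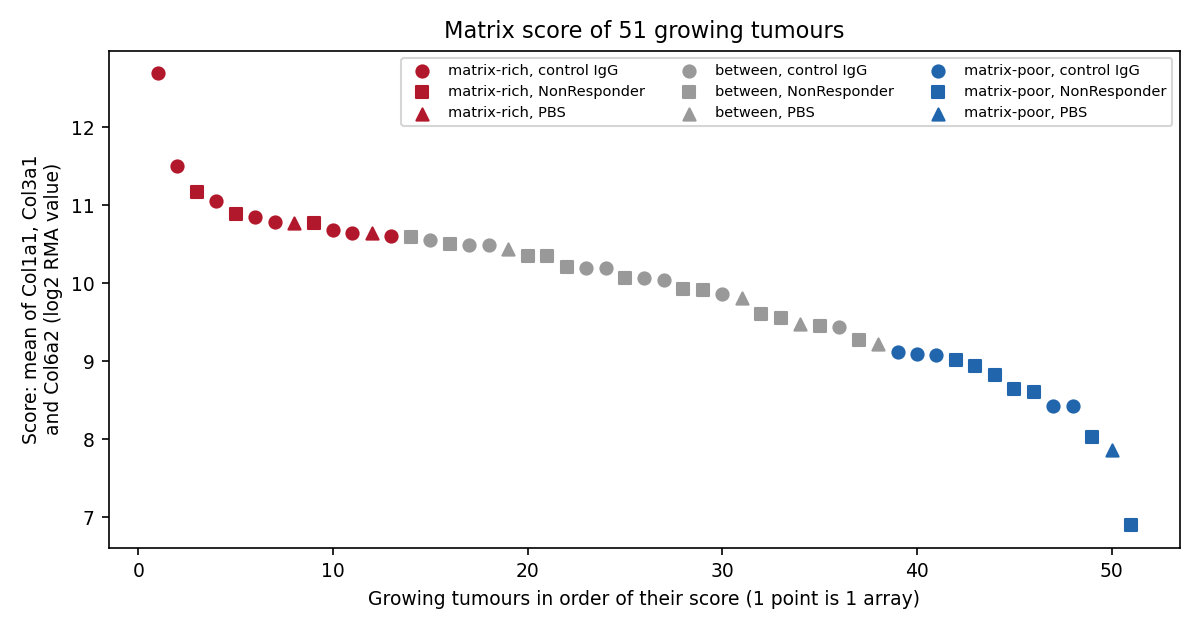
Matrix score (mean log2 RMA value of the 3 score genes, vertical axis) of 51 growing tumours in descending order (horizontal axis); colour gives the matrix group and the marker shape the treatment label. Scores fall without a gap at either group limit, and 1 array stands apart at each end, at 12.69 and 6.90.

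The matrix-rich group held 8 control IgG, 3 NonResponder and 2 PBS tumours, and the matrix-poor group 5 control IgG, 7 NonResponder and 1 PBS tumour, a difference in treatment that did not pass Fisher's exact test (two-sided p = 0.387). Both groups drew 9 arrays from the larger of the 4 ranges of title numbers, called title series here, whose meaning the labels do not give. Array medians were 5.77 to 5.86 in matrix-rich and 5.78 to 5.83 in matrix-poor tumours, a mean difference of 0.02 that passed a two-sided permutation test (adjusted p = 0.045 over 4 array measures). The correlation with other arrays and the 3' minus 5' signal of Actb and Gapdh, a sign of RNA integrity, gave adjusted p-values of 0.434, 0.444 and 0.434.

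Skeletal muscle transcripts moved with the groups. The mean of 14 muscle genes ran from 5.11 to 10.85 in matrix-rich tumours and from 5.15 to 6.92 in matrix-poor tumours, and it was 8 or more in 5 of 13 matrix-rich and 0 of 13 matrix-poor tumours. Acta1, the actin of skeletal muscle, had 5.495, 7.55 and 13.21 (lowest, median and highest) in matrix-rich and 4.99, 5.49 and 9.23 in matrix-poor tumours. The list's median difference was 1.59 on the log2 scale with these arrays and 0.15 without the 5, and 0 of 14 genes passed limma's adjusted threshold in either case (12 were higher in matrix-rich tumours at an unadjusted p under 0.05 with all arrays). Counts and values without these 5 arrays are therefore given beside calls that changed when they were left out. The 5 include the arrays with the highest and second highest scores, control IgG replicates 7 (12.69) and 1 (11.50). Leaving them out therefore also narrows the contrast in score and leaves 8 against 13 arrays. Whether a call lost in this way depended on muscle was not tested.

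Each gene outside the score was tested in the 26 arrays with limma, with treatment label and title series as terms, and called at a Benjamini-Hochberg adjusted p under 0.05 over 18190 genes. Of these, 1563 were called (8.59%): 769 genes were higher in matrix-rich tumours (4.23% of genes tested) and 794 lower (4.37%); the median difference of all genes was -0.03. The rises were larger: 166 genes were more than 1 on the log2 scale higher in matrix-rich tumours (0.913%) and 2 were more than 1 lower (0.0110%), neither of which passed the test. For 40 genes (0.220%) the groups did not overlap, and all 40 were higher in matrix-rich tumours. Since the groups are the ends of a score made from the same arrays, a small p shows only that a gene went with the score in these arrays. The lists of matrix and fibroblast genes, which lie nearest to it, are given without p in these arrays. Members that also stand in another list, such as Twist1 and Inhba, were tested and counted there.

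These counts moved with the choice of arrays. Without the 5 arrays with muscle transcripts, 351 genes were called higher and 64 lower. In the larger title series alone, 9 tumours against 9, they were 50 and 3. Without control IgG replicate 7 there were 665 higher and 395 lower. The split of calls also depended on scaling: 775 higher and 1278 lower after quantile normalization, and 789 higher and 3710 lower after centring each array on its median, which moved the median difference of all genes to -0.10. That centring also turned some small list medians given below to under 0: -0.0066 for the 39 collagens, -0.019 for T cell genes, -0.041 for melanocyte genes and -0.0019 for cell cycle genes. The sign of the difference was the same in each of these settings for all 769 genes called higher and all 794 called lower. These settings reuse the arrays in which the genes were called, so the kept sign is not separate evidence.

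Tumours with other labels, which had no part in choosing the groups, offered a separate measurement. In 36 Responder, Relapse, GrowthDelay and Stabilization tumours with Glycam1 under 8, treated with the same antibody at 10 mg/kg, the score ran from 8.09 to 13.63, and the slope of each gene on it was fitted with treatment label and title series as terms. The score was read from these same 36 arrays, so a small p shows only that a gene went with the score there. Matrix and fibroblast genes lie nearest to the score in these tumours too. A slope was called for 8953 genes (49.2%), positive for 3576 genes (19.7%) and negative for 5377 (29.6%). Of the 769 genes higher in matrix-rich tumours 697 had a called positive slope (90.6% of the 769, and 19.5% of the 3576), and 2 a negative one. Of the 794 lower genes 650 had a called negative slope (81.9% of the 794, and 12.1% of the 5377), and 3 a positive one. In the 25 growing tumours between the groups, whose scores spanned only 9.22 to 10.60, the slope was called positive for 8 genes and negative for 0 in limma, with 414 and 342 at an unadjusted p under 0.05.

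**Figure D2:**
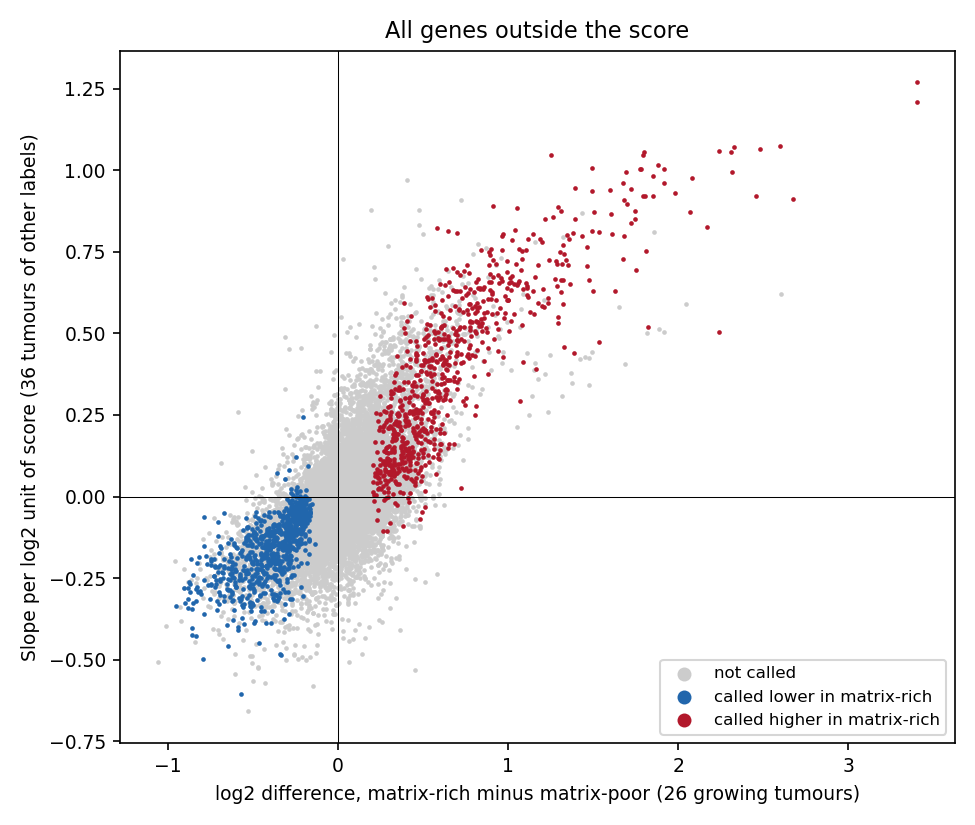
Each point is a gene: its log2 difference between 13 matrix-rich and 13 matrix-poor growing tumours (horizontal) against its slope per log2 unit of the score in 36 tumours of other labels (vertical). The genes called higher reach differences of 3.40 and mostly lie above a slope of 0, while the genes called lower stay within 1 log2 unit and mostly lie below it.

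Collagen genes outside the score differed in how closely they followed it. Of 39 measured, 25 were above 0 and 14 below, and in tumours of other labels 20 slopes were called positive (19.7% of all genes) and 3 negative (29.6%). In matrix-rich tumours 8 of the 39 were more than 1 on the log2 scale higher (0.913% of all genes). For 5 the groups did not overlap (0.220% of all genes), and the median over the 39 was 0.07 (all genes: -0.03). The partner chains of the score genes led. Col1a2, the second chain of collagen I, had 11.79, 12.22 and 14.06 (lowest, median and highest) in matrix-rich tumours and 6.89, 9.64 and 10.51 in matrix-poor tumours. Every matrix-rich tumour lay above every matrix-poor one, and the difference was 2.68 ± 0.35 (SE). Col6a1 differed by 1.92 ± 0.25 and Col6a3 by 1.85 ± 0.22, the 2 other chains of collagen VI, again without overlap. Col5a2 and Col5a3, chains of the collagen V that controls the width of collagen I fibrils, differed by 1.68 ± 0.18 and 1.69 ± 0.22.

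In the tumours of other labels the same chains rose with the score, by 0.91 ± 0.04 log2 units per unit of score for Col1a2 (limma adjusted p = 6.01e-19), 1.003 ± 0.04 for Col6a1 (7.51e-18) and 0.92 ± 0.04 for Col6a3 (4.69e-17). They are partner chains of the score genes in the same arrays, so these p-values describe a close tie and are not separate evidence. Fibrillar collagens had 7 of 9 called positive slopes (19.7% of all genes) and network collagens 6 of 11, with 2 negative (29.6% of all genes). Among the beaded, FACIT and transmembrane collagens 7 of 19 slopes were called positive and 1 negative, and the median difference of these 19 between the groups was -0.0068 (0.0025 after quantile normalization). Col12a1, which decorates collagen I fibrils, differed by 1.81 ± 0.28, but other probe sets of the gene gave values down to -0.07.

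The bases upstream of 3 genes with non-overlapping groups are shown because they belong to the gene with the largest difference (Sfrp2, described below with the fibroblast genes) and to collagen genes whose window holds a searched motif. They are the 120 bases before the annotated start, from RefSeq on GRCm38.p6, at chr3:83766201-83766320 (plus strand), chr6:4505498-4505617 (plus) and chr10:76726045-76726164 (minus), with motif matches in capitals.
Sfrp2: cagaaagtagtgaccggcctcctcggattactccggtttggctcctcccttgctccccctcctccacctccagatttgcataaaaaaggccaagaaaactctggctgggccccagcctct
Col1a2: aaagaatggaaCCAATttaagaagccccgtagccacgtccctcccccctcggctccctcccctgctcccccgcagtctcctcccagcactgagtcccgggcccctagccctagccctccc
Col6a1: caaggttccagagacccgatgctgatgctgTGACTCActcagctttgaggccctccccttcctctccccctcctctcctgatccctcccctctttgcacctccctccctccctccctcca

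Of the 40 genes without overlap, 33 had such a window, and 5 motifs were searched on both strands in these and in 14450 genes. A TATA box (TATAAA) was found in 4 of 33 windows (12.1%) and in 4.89% of all, and a CCAAT box (CCAAT), as in Col1a2 at position -109, in 7 of 33 (21.2%) and 24.2% of all. The SMAD box (CAGAC) was found in 5 of 33 (15.2%, all genes 21.4%), the TEAD motif (GGAATG) in 1 (3.03%, all genes 4.92%) and the AP-1 motif (TGANTCA), in Col6a1 at position -90, in 1 (3.03%, all genes 2.73%). The printed Sfrp2 window holds none of these letters, and a match is a description of the sequence only.

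Enzymes that finish collagen differed less as a list than the crosslinkers at its head. Loxl1, a lysyl oxidase needed for elastic fibres, had 7.32, 7.81 and 10.05 in matrix-rich tumours and 3.90, 5.39 and 6.36 in matrix-poor tumours, without overlap and with a difference of 2.48 ± 0.29. Lox, which crosslinks collagen and elastin, differed by 2.46 ± 0.34 with some overlap, from 8.36 upward in matrix-rich tumours and up to 9.02 in matrix-poor tumours. The remaining members stayed under 1 log2 unit: of 24 measured only these 2 passed it, and the list's median was 0.29. Per unit of score in the other tumours, Loxl1 rose by 1.07 ± 0.05 (adjusted p = 3.87e-17) and Lox by 0.92 ± 0.08 (8.47e-11). In the list 15 of 24 slopes were called positive (19.7% of all genes) and 2 negative (29.6%).

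Proteoglycans were divided within their list. The small leucine-rich proteoglycans, which coat collagen fibrils, had 5 of 13 members more than 1 log2 unit higher in matrix-rich tumours, while the list's median was 0.07. Biglycan (Bgn) had 10.04, 10.72 and 12.74 in matrix-rich tumours and 7.43, 8.83 and 9.51 in matrix-poor tumours, without overlap. Decorin (Dcn) differed by 2.24 ± 0.32 and lumican (Lum) by 1.78 ± 0.32, both with overlapping groups; another probe set of Dcn gave -0.02. Slopes were called positive for 9 of 13 (19.7% of all genes) and negative for 0 (29.6%). Among the positive slopes were Bgn at 0.87 ± 0.04 (adjusted p = 1.39e-17) and Dcn at 1.06 ± 0.08 (1.25e-12).

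Among the 7 matrix lists the glycoproteins and elastic fibre genes had the highest median, 0.76: 32 of 34 were above 0 and 14 were more than 1 log2 unit higher. Periostin (Postn), a matrix protein of remodelling tissue that binds collagen, had 10.33, 10.98 and 12.66 in matrix-rich tumours and 6.39, 8.76 and 10.49 in matrix-poor tumours. Its groups overlapped only at their edges. Tenascin C (Tnc), an adhesion-modulating glycoprotein of wounds and tumours, had 7.93, 8.40 and 10.78 in matrix-rich tumours and 4.84, 6.70 and 7.19 in matrix-poor tumours, without overlap. In the tumours of other labels 31 of 34 slopes were called positive (19.7% of all genes) and 1 negative (29.6%). The slope was 0.99 ± 0.06 for Postn (adjusted p = 8.87e-15) and 1.06 ± 0.07 for Tnc (5.95e-13).

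Basement membrane laminins and nidogens differed less, with a median of 0.22 over 14 genes. Nid1, which links laminin with collagen IV, was the 1 member more than 1 log2 unit higher (1.54 ± 0.16, without overlap; another of its probe sets gave -0.05). Its slope was 0.81 ± 0.05 (adjusted p = 2.24e-14), and 7 of 14 slopes in the list were called positive (19.7% of all genes) and 1 negative (29.6%).

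Fibroblast genes were also higher in matrix-rich tumours; in bulk tissue, more cells of a type and more RNA per cell cannot be told apart. Sfrp2, a secreted modulator of Wnt signalling made by fibroblasts that stands in none of the lists, had the largest difference of all 18190 genes: 6.98, 8.41 and 10.57 in matrix-rich tumours against 3.44, 4.98 and 6.51 in matrix-poor tumours. The groups did not overlap, and the difference was 3.40 ± 0.42; per unit of score in the other tumours it rose by 1.21 ± 0.09 (adjusted p = 1.29e-12). The values carry no call of detection, and matrix-poor medians as low as this lie near the keratinocyte genes (list means of 4.57 to 4.78 in matrix-poor tumours); for such genes, Cd163 and Lyve1 below among them, no fold is given. Pdgfra, the PDGF receptor that marks fibroblasts, had 6.63, 7.52 and 9.54 in matrix-rich tumours and 4.68, 5.77 and 6.56 in matrix-poor tumours, without overlap.

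Of the 20 fibroblast markers, of which Mfap5 and Fbln1 also stand in the glycoprotein list, 17 were above 0, 7 were more than 1 log2 unit higher, and the median was 0.72. The 6 markers used to check the label (Pdgfra, Fap, Thy1, Pdpn and the proteoglycans Dcn and Lum) differed by 0.89 to 2.24, all higher in matrix-rich tumours. Slopes in tumours of other labels were called positive for 18 of 20 (19.7% of all genes) and negative for 0 (29.6%), with Pdgfra at 0.94 ± 0.04 (adjusted p = 1.02e-17). Contractile genes of pericytes and myofibroblasts differed less: their median was 0.27, 0 of 17 were more than 1 log2 unit higher, and 13 slopes were called positive (19.7% of all genes) and 1 negative (29.6%). Acta2, smooth muscle actin, differed by 0.94 ± 0.24 with a slope of 0.51 ± 0.04 (adjusted p = 2.08e-11). The pericyte markers were uneven: Pdgfrb differed by 0.99 ± 0.22, Rgs5 by 0.24 ± 0.19 and Cspg4 by 0.04 ± 0.07.

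Secreted factors of inflammatory fibroblasts were uneven. Cxcl12, the chemokine that binds Cxcr4, had 7.70, 8.79 and 11.08 in matrix-rich tumours and 4.38, 6.55 and 7.48 in matrix-poor tumours, without overlap, and differed by 2.60 ± 0.37; another probe set gave -0.19. Il33, an alarmin stored in stromal nuclei, differed by 1.49 ± 0.27, and Vegfd, a growth factor for lymphatic vessels, by 1.31 ± 0.22 without overlap. The list's median was 0.34, with 4 of 16 members more than 1 log2 unit higher. Slopes were called positive for 10 (19.7% of all genes) and negative for 0 (29.6%). Among the positive slopes were Cxcl12 at 1.07 ± 0.08 (adjusted p = 9.43e-12) and Il33 at 0.82 ± 0.08 (5.83e-10).

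**Figure D3:**
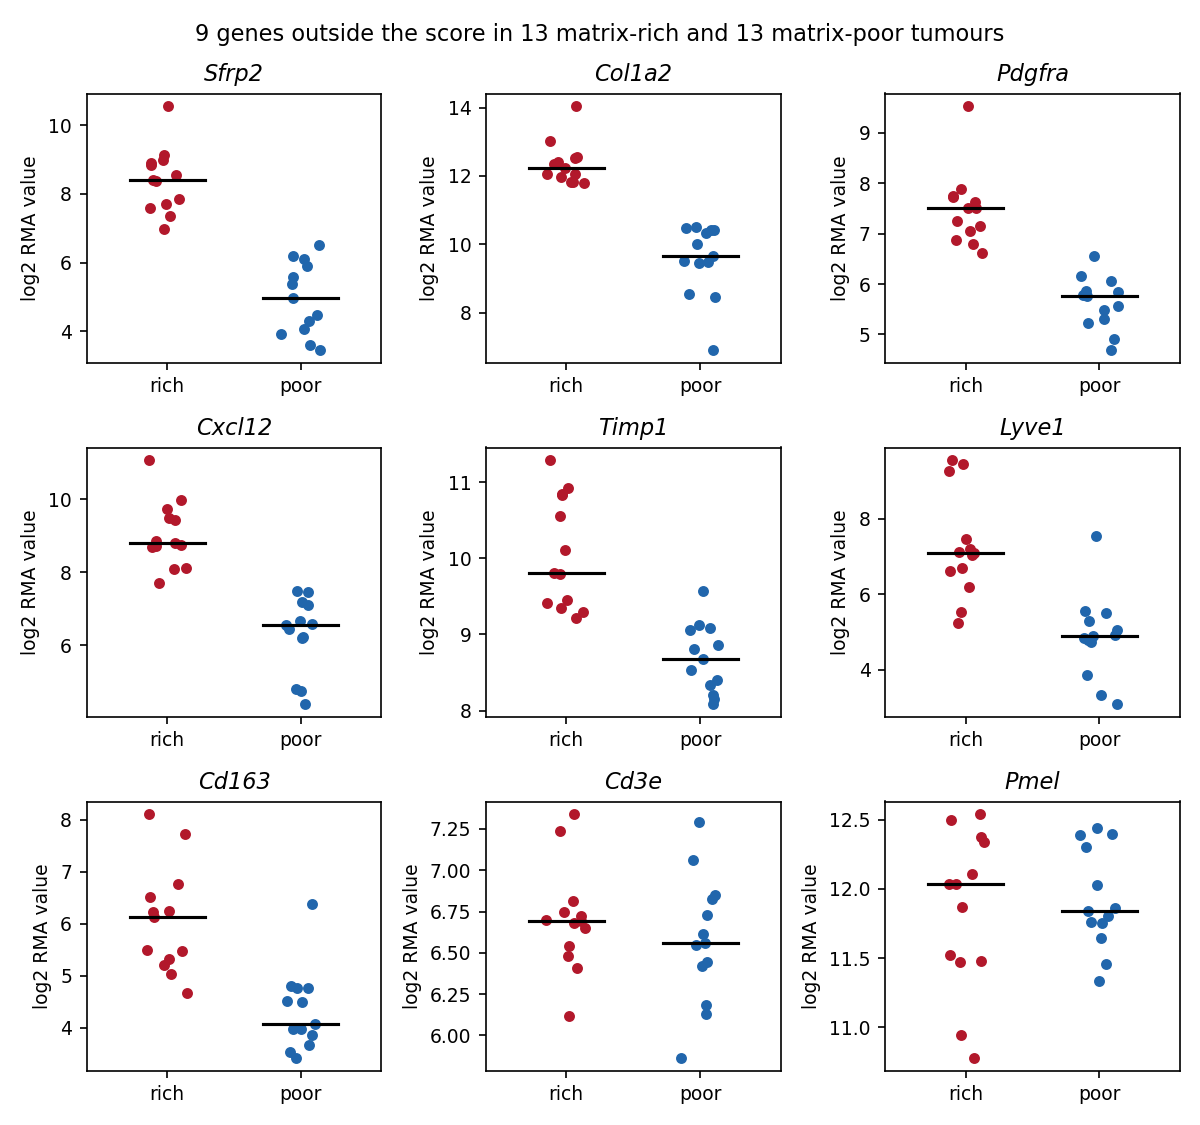
Log2 RMA values (vertical axes) of 9 genes outside the score in 13 matrix-rich (left, red) and 13 matrix-poor tumours (right, blue); points are arrays and bars are medians. Sfrp2, Col1a2, Pdgfra and Cxcl12 do not overlap between the groups, Timp1, Lyve1 and Cd163 overlap in part, and Cd3e and Pmel overlap over most of their range.

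Receptors and modulators of the TGF-beta pathway, which drives collagen synthesis in fibroblasts, included 4 of 25 genes called higher in matrix-rich tumours (4.23% of all genes) and 0 called lower (4.37%), with a median of 0.19. Fstl1, a secreted follistatin-like glycoprotein, had 9.87, 10.39 and 11.84 in matrix-rich tumours and 8.01, 9.01 and 9.54 in matrix-poor tumours. The groups did not overlap (difference 1.46 ± 0.16, 2.76-fold, adjusted p = 2.43e-05). Tgfbr3, the co-receptor betaglycan, rose by 1.002 ± 0.15 (2.00-fold, adjusted p = 0.000503) without overlap, and Tgfbr2, the ligand-binding receptor, by 0.46 ± 0.10 (0.0167). Of the 3 probe sets of Tgfbr2, 2 were lower in matrix-rich tumours, down to -0.13. Fst, an activin inhibitor, was the fourth gene called (0.61 ± 0.12, adjusted p = 0.00831). The list also holds Inhba, which stands among the fibroblast markers and was not called. All 4 were called without the arrays with muscle transcripts. In tumours of other labels 20 of 25 slopes were called positive (19.7% of all genes) and 2 negative (29.6%), with Fstl1 at 0.71 ± 0.04 (adjusted p = 8.02e-15).

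Of 19 genes of the PDGF, FGF and IGF pathways 3 were called higher (4.23% of all genes) and 0 lower. These were Fgfr1, an FGF receptor (0.76 ± 0.16, adjusted p = 0.0113), and Igfbp7 and Igfbp6, secreted binding proteins of the IGF system. Igfbp7 differed by 0.98 ± 0.24 (adjusted p = 0.0256), and another of its probe sets gave -0.13. Igfbp6 differed by 0.68 ± 0.19 (adjusted p = 0.0384, and 0.113 without the arrays with muscle transcripts). Integrins and discoidin receptors had 1 of 20 called, a share near that of all genes; this was Ddr2, a receptor tyrosine kinase for fibrillar collagen (0.42 ± 0.13, adjusted p = 0.045, and 0.13 without those arrays).

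Matrix proteases and their inhibitors had 6 of 31 genes called higher (4.23% of all genes) and 0 lower, with a median of 0.33, and 25 slopes called positive (19.7% of all genes) and 0 negative. Timp1, an inhibitor of metalloproteinases, had 9.21, 9.81 and 11.29 in matrix-rich tumours and 8.08, 8.68 and 9.57 in matrix-poor tumours. The groups overlapped at their edges, and the difference was 1.24 ± 0.22 (2.36-fold, adjusted p = 0.00313). Mmp3, the stromelysin that opens proteoglycans and other metalloproteinases, rose by 1.68 ± 0.33 (adjusted p = 0.00799), and Adamts12, a secreted metalloproteinase, by 0.84 ± 0.16 (0.00583) without overlap. Another probe set of Adamts12 gave -0.04. In the tumours of other labels the slope was 0.61 ± 0.08 for Timp1 (adjusted p = 1.32e-07) and 0.91 ± 0.12 for Mmp3 (2.96e-07). Of the 6, Ctsb, a lysosomal protease, was not called without the arrays with muscle transcripts (0.34 ± 0.10, adjusted p = 0.0449, and 0.133 without them), while Mmp3, Mmp23, Adamts5, Adamts12 and Timp1 were, and Timp3, another metalloproteinase inhibitor, was called only without them.

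Macrophage genes were the immune list, besides complement, with the most calls: 7 of 19 higher (4.23% of all genes) and 0 lower (4.37%), with a median of 0.60. Cd163, a scavenger receptor for haemoglobin, had 4.67, 6.13 and 8.11 in matrix-rich tumours and 3.41, 4.06 and 6.39 in matrix-poor tumours. A single matrix-poor array, at 6.39, lay above the matrix-rich median, and the difference was 1.75 ± 0.34 (adjusted p = 0.00662). Csf1r, the receptor for the macrophage growth factor, rose by 1.32 ± 0.29 (adjusted p = 0.0169), and Mrc1, the mannose receptor, by 1.31 ± 0.29 (0.0151). Without the arrays with muscle transcripts 3 of the 19 were called; the adjusted p was then 0.00655 for Cd163, 0.0139 for Csf1r and 0.00778 for Mrc1. All 19 slopes in tumours of other labels were called positive (19.7% of all genes), with Csf1r at 0.77 ± 0.06 (adjusted p = 7.44e-12) and Cd163 at 0.70 ± 0.10 (7.8e-07).

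Complement genes had 6 of 8 called higher (4.23% of all genes), with a median of 0.83, but 1 of 8 was called without the arrays with muscle transcripts. C1s1, a protease of the first component, rose by 1.34 ± 0.28 (adjusted p = 0.0112, and 0.0416 without those arrays). Serping1, the inhibitor of that protease, rose by 1.33 ± 0.34 (adjusted p = 0.0317) and had an adjusted p of 0.121 without them. Slopes were called positive for 7 of 8 (19.7% of all genes) and negative for 0 (29.6%).

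Lymphatic and vascular genes had 5 of 21 called higher (4.23% of all genes) and 0 lower, and 3 without the arrays with muscle transcripts. Lyve1, the hyaluronan receptor of lymphatic endothelium that some tissue macrophages also carry, had 5.24, 7.10 and 9.57 in matrix-rich tumours and 3.09, 4.91 and 7.56 in matrix-poor tumours. The groups overlapped, and the difference was 2.24 ± 0.47 (adjusted p = 0.0119, and 0.00641 without those arrays). The blood vessel genes differed less: Pecam1, an adhesion molecule of endothelium, rose by 0.78 ± 0.23 (adjusted p = 0.0412, and 0.0708 without those arrays). Sox18, a transcription factor of endothelium, and Mmrn2, an endothelial matrix glycoprotein, were likewise no longer called (0.0596 and 0.0517), Tek, the angiopoietin receptor, still was (0.00836), and Kdr, a VEGF receptor, was called only without them (0.0325). Per unit of score in the other tumours the slope of Lyve1 was 0.50 ± 0.16 (adjusted p = 0.0102), and 18 of 21 slopes in the list were called positive (19.7% of all genes) and 1 negative.

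Lymphocyte lists had few or no calls between the growing groups. Of 14 T cell genes limma called 0, with a median of 0.05, and of 15 cytotoxic and natural killer genes 0, with a median of 0.08; 0 of either list had an unadjusted p under 0.05. Among inhibitory receptor and regulatory T cell genes 1 of 12 was called higher (4.23% of all genes). This was Ikzf2, a transcription factor of regulatory T cells (0.33 ± 0.10, adjusted p = 0.044, and 0.133 without the arrays with muscle transcripts). Cd3e, one of the CD3 chains, had 6.12, 6.69 and 7.34 in matrix-rich tumours and 5.86, 6.56 and 7.29 in matrix-poor tumours. The ranges overlapped almost completely (0.17 ± 0.11, adjusted p = 0.289). In the tumours of other labels 12 of 14 T cell slopes were called positive (19.7% of all genes), with Cd3e at 0.29 ± 0.08 (adjusted p = 0.00292). Whether the slope differs between growing and other tumours was not tested. B cell genes had 0 of 13 called and neutrophil genes 0 of 11, with medians of -0.04 and 0.12; at an unadjusted p under 0.05, 1 B cell gene was higher, 2 were lower and 3 neutrophil genes were higher.

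MHC class II genes, which present antigen on dendritic cells and macrophages, were all above 0 with a median of 0.70, yet limma called 0 of 8 (4 were higher at an unadjusted p under 0.05). H2-Aa, the chain with the largest difference in the list, had 9.17, 11.14 and 12.65 in matrix-rich tumours and 6.98, 10.08 and 11.58 in matrix-poor tumours (1.16 ± 0.48, adjusted p = 0.0964). All 8 slopes in other tumours were called positive (19.7% of all genes). The interferon gamma response had 0 of 13 called with a median of 0.18 (1 lower at an unadjusted p under 0.05), and MHC class I presentation 0 of 13 with a median of 0.21 (5 higher at an unadjusted p under 0.05). Of 13 type I interferon genes 2 were called higher (4.23% of all genes), and 0 without the arrays with muscle transcripts. These were Oas2 and Oasl2, sensors of viral RNA (adjusted p = 0.0453 and 0.0478).

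Cd274, which encodes PD-L1, had 7.95, 8.20 and 9.12 in matrix-rich tumours and 8.02, 8.25 and 8.84 in matrix-poor tumours (0.02 ± 0.12, adjusted p = 0.921). The ranges overlapped almost completely. Pdcd1, encoding its receptor PD-1, differed by 0.04 ± 0.18 (adjusted p = 0.886). The differences of the engineered genes of the model were 0.18 ± 0.19 for Hgf (adjusted p = 0.503) and -0.14 ± 0.06 for Cdk4 (0.0778).

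**Figure D4:**
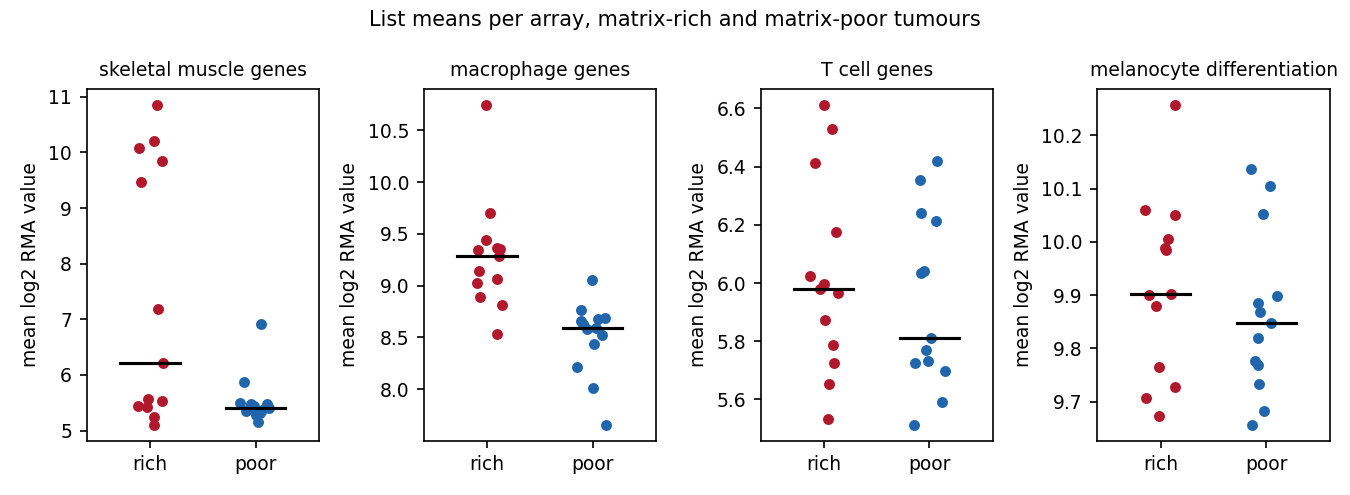
Mean log2 RMA value (vertical axes) of 4 gene lists in each of 13 matrix-rich (left, red) and 13 matrix-poor tumours (right, blue), with bars at the medians. Muscle genes are high in 5 matrix-rich arrays, macrophage genes are shifted upward in matrix-rich tumours, and T cell and melanocyte genes overlap over most of their range.

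Melanocyte genes had 1 of 17 called in each direction, shares near those of all genes (4.23% higher and 4.37% lower), and a median of 0.03. Ednrb, the endothelin receptor of melanocyte precursors that vessels and stroma also carry, rose in matrix-rich tumours (1.53 ± 0.34, adjusted p = 0.0175), and Rab38, a GTPase of melanosome traffic, fell (-0.34 ± 0.10, 0.0453; 0.108 without the arrays with muscle transcripts). Pmel, the fibre protein of melanosomes, had 10.78, 12.04 and 12.54 in matrix-rich tumours and 11.33, 11.84 and 12.44 in matrix-poor tumours. The values overlapped widely (-0.15 ± 0.19, adjusted p = 0.606). In tumours of other labels 13 of 17 melanocyte slopes were called negative (29.6% of all genes) and 1 positive (19.7%), with Pmel at -0.58 ± 0.13 (adjusted p = 0.000547). Responder replicate 21 and Stabilization replicate 1, with scores of 13.63 and 13.58, had melanocyte list means of 7.13 and 7.32. The lowest in matrix-rich tumours was 9.67. How far these slopes rest on those 2 tumours was not tested. Genes of dedifferentiated melanoma had 3 of 17 called higher (4.23% of all genes), the transcription factors Zeb1, Zeb2 and Twist1, which fibroblasts also express, and 1 without the arrays with muscle transcripts. Zeb1, a repressor of epithelial genes, differed by 0.70 ± 0.14 (adjusted p = 0.0106, and 0.0025 without those arrays). Without them the adjusted p was 0.113 for Zeb2 and 0.11 for Twist1. Of the 4 probe sets of Zeb1, 2 were lower in matrix-rich tumours, down to -0.12. Twist1 also stands among the fibroblast markers.

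Cell cycle genes had 0 of 19 called and a median of 0.07 between the growing groups (5 higher and 3 lower at an unadjusted p under 0.05). In tumours of other labels 16 of 19 slopes were called negative (29.6% of all genes). Cdk1, the mitotic kinase, was at -0.22 ± 0.08 (adjusted p = 0.0735) between the growing groups and had a slope of -0.27 ± 0.06 in the others (0.000229). Cholesterol synthesis had 0 of 14 called (1 higher at an unadjusted p under 0.05), a median of 0.00 and 13 of 14 slopes called negative (29.6% of all genes). Idi1, the isomerase that supplies isoprenoid units, had a slope of -0.57 ± 0.11 (6.4e-05). Whether these slopes differ between growing and other tumours was not tested. Hypoxia and glycolysis genes had 0 of 15 called, and 0 at an unadjusted p under 0.05.

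Oxidative phosphorylation was the list with the most genes called lower: 4 of 16 (4.37% of all genes), with 0 higher and a median of -0.13. The 4 were Ndufa4, Ndufb5, Uqcrfs1 and Cox6c, subunits of respiratory complexes, at -0.33 to -0.21; Ndufb5, a subunit of complex I, fell by 0.29 ± 0.07 (adjusted p = 0.0222) and was the 1 gene called without the arrays with muscle transcripts (0.0454). Cytosolic ribosomal proteins had 2 of 12 called lower (4.37% of all genes), and 0 without those arrays. These were Rps6 (-0.31 ± 0.08, adjusted p = 0.0269) and Rps19 (-0.30 ± 0.08, 0.0362).

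Genes of neighbouring tissues other than muscle differed less. Of 8 Schwann cell and nerve genes 2 were called higher (4.23% of all genes) and 0 lower, and the list's median was 0.12. These counts were the same without the arrays with muscle transcripts. Adipocyte genes had a median of 0.52, and 2 of 8 were called higher (4.23% of all genes). These were Lipe and Plin4, a lipase and a coat protein of fat droplets. Another probe set of Lipe gave -0.08, and 0 genes of the list were called without the arrays with muscle transcripts. The list's mean lay between 5.59 and 7.66 in matrix-rich and between 5.56 and 6.30 in matrix-poor tumours. Keratinocyte genes had 0 of 12 called (1 lower at an unadjusted p under 0.05) and list means of 4.49 to 4.79 in matrix-rich and 4.57 to 4.78 in matrix-poor tumours. Hba-a2, a haemoglobin chain of red cells, was called lower (-0.84 ± 0.25, adjusted p = 0.0458; 0.0998 without the arrays with muscle transcripts). The part of these tissues in the matrix differences was not tested beyond leaving out the 5 arrays.

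**Figure D5:**
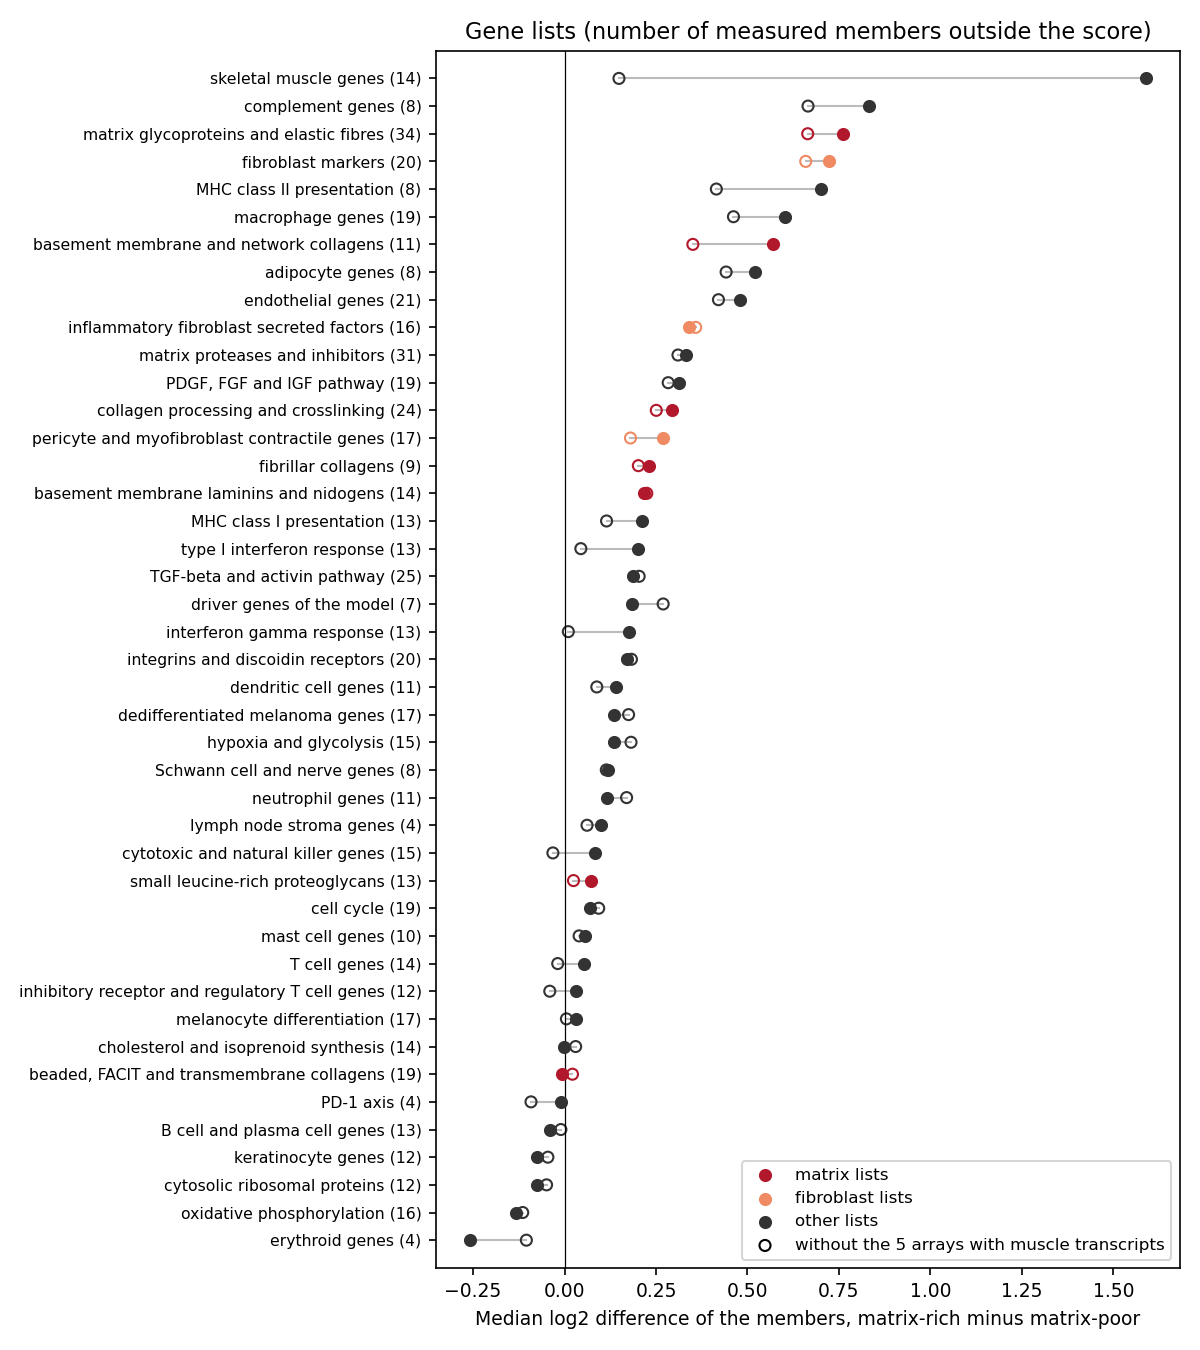
Median log2 difference of each gene list, matrix-rich minus matrix-poor (horizontal axis), with the number of measured members in brackets; filled points use all 26 arrays and open points leave out the 5 matrix-rich arrays with muscle transcripts. The muscle list itself moves most between the points, from 1.59 with those arrays to 0.15 without them, while the fibroblast markers and the matrix glycoproteins keep medians above 0.6.

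Outside the matrix and fibroblast lists, the called genes with the largest rises were Sfrp2 and Car3. Car3, a carbonic anhydrase abundant in muscle and fat, had 4.36, 9.39 and 12.64 in matrix-rich and 3.80, 6.20 and 9.79 in matrix-poor tumours (3.40 ± 0.88, adjusted p = 0.0317). Without the arrays with muscle transcripts its difference was 2.26 with an adjusted p of 0.154. Next among called genes came Lyve1, then Hp, haptoglobin (1.98 ± 0.42, adjusted p = 0.0125, and 0.0615 without those arrays), Ccdc80, a secreted matrix-associated protein (1.88 ± 0.28, 0.0005), and Aplnr, the apelin receptor of endothelium (1.85 ± 0.35, 0.00583).

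The remaining genes in this rank were Ptx3, F13a1, Ptgfrn and Serpinf1. Ptgfrn, a membrane protein that associates with tetraspanins, had 4.82, 5.44 and 7.52 in matrix-rich tumours and 3.08, 3.79 and 4.14 in matrix-poor tumours, without overlap (1.80 ± 0.21, adjusted p = 5.22e-05). Serpinf1, the secreted anti-angiogenic factor PEDF, rose by 1.80 ± 0.25 (adjusted p = 0.000226) without overlap, and F13a1, a transglutaminase subunit of macrophages and clotting, by 1.81 ± 0.39 (0.0139). Ptx3, a soluble pattern recognition protein, rose by 1.82 ± 0.23 (adjusted p = 0.000102) on its brightest probe set, while its other probe set gave -0.13. Slopes in tumours of other labels were 1.06 ± 0.05 for Ptgfrn (adjusted p = 2.28e-16) and 0.92 ± 0.06 for Serpinf1 (3.68e-14).

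The 10 largest falls among called genes were smaller, between -0.86 and -0.95. Gng8, a G protein gamma subunit, had 6.9996, 8.09 and 8.84 in matrix-rich tumours and 7.70, 8.75 and 9.65 in matrix-poor tumours (-0.95 ± 0.24, adjusted p = 0.0277). The ranges overlapped widely, as for the other 9. These were Acyp1, an acylphosphatase, Snhg1, a host gene of small nucleolar RNAs, Ccdc58, Med21, a subunit of Mediator, Mrpl50, of the mitochondrial ribosome, Fabp3, a fatty acid carrier, Acot13, an acyl-CoA thioesterase, Nit2, an amidase, and Nxt2, a factor of RNA export. Another probe set of Ccdc58 gave 0.09. In the larger title series, 9 against 9 arrays, the 10 lay between -0.47 and -0.61, and in the series that held only control IgG tumours, 2 against 2 arrays, between -1.17 and -1.74. Without the arrays with muscle transcripts 0 of the 10 passed limma's test, at adjusted p-values of 0.0943 to 0.146.

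The difference between matrix-rich and matrix-poor tumours was also taken within each treatment, as a difference of means. Sfrp2 differed by 3.49 among control IgG tumours (8 against 5) and by 2.97 among NonResponder tumours (3 against 7), Col1a2 by 2.40 and 2.95, and Pdgfra by 1.65 and 1.61. Cd163 differed by 1.496 among control IgG and 1.18 among NonResponder tumours. Values of Cd3e and Cd274 went opposite ways, at 0.30 among control IgG and -0.13 among NonResponder tumours for Cd3e, and at 0.21 and -0.25 for Cd274. The test of the difference between the treatments called 0 of 18190 genes in limma, with 445 at an unadjusted p under 0.05 and a smallest adjusted p of 0.982. Control IgG tumours alone gave 0 calls in either direction (1487 genes higher and 1696 lower at an unadjusted p under 0.05), and NonResponder tumours alone 30 higher and 0 lower.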

How the data were processed

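RNA of 90 tumours was measured on Affymetrix arrays. The deposited values are log2 expression per probe set; per the submitters' processing notes the authors normalized them with RMA, with limma also named, and versions and the arrays normalized together are not given in the sources used here. The table holds 45101 probe sets, of which 64 controls were left out. In the platform annotation 34945 carried 1 gene symbol, 932 several and 9160 were not listed; each of 18193 genes was read from its brightest probe set (9010 genes had a choice). RMA gives no call of detection, so dim genes have no floor here, and array number limits the precision.

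Groups follow the treatment labels and the score. limma 3.58.1 (R 4.3.3; lmFit, eBayes) was fitted over 18190 genes with treatment label and title series as terms, two-sided, with Benjamini-Hochberg adjustment at 0.05; the procedure was tested on simulated data. Array measures used 100000 resamples (SciPy 1.17.1), and figures matplotlib 3.10.9. Lists held 677 genes, 617 of them measured; the rest were not analysed here. The members and lists were chosen with earlier results of these data known. Named genes were the 10 largest rises and falls among called genes outside the matrix and fibroblast lists with the same sign in each title series holding 2 arrays of both groups, up to 4 members of each other list by smallest p, up to 6 of each matrix or fibroblast list by largest difference, and Cd274, Pdcd1, Hgf and Cdk4. Unnamed transcripts and immune receptor segments were skipped among rises and falls. Cell type markers and most genes in counts of 5 or fewer are named besides. Promoter windows came from RefSeq, GRCm38.p6. Alternatives covered the covariates, title series, scaling, dim genes, probe sets, group size, score, variance model and arrays left out.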

Additional observations from a re-analysis of the deposited data

How the results depend on the processing

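The counts of 769 higher and 794 lower genes stayed within 1.5 times with a variance trend, the mean of all probe sets, genes with a mean above 6, and without NonResponder replicate 11. The higher count moved to 50 in the larger title series alone, 42 with 10 against 10 arrays, 351 without arrays with muscle transcripts, 2081 as a slope over all growing arrays, 2308 with z scores, 0 in control IgG and 30 in NonResponder arrays alone. The lower count moved to 256 with no covariates, 460 with title series only, 3 in the larger series, 1278 after quantile normalization, 3710 after median centring, 5 with 10 against 10, 64 without muscle arrays, 2453 as a slope, 2747 with z scores, and 0 in either treatment alone. Leaving out an extreme array gave 665 to 930 higher and 395 to 1116 lower.

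Slope counts (3576 positive, 5377 negative) moved to 2263 and 3415 in the larger title series and to 8 and 0 in the growing tumours between the groups; median centring gave 8976 negative. In those tumours between the groups 5 slopes of genes named here had the opposite sign: Pmel 0.74, Cd274 -0.19, Cd3e -0.20, H2-Aa -0.22 and Serping1 -0.064. The cause was not tested. Settings for the group difference largely reuse the arrays in which the genes were called, so a kept sign is not separate evidence. No called difference of a named gene changed sign under any setting run, but 19 of 105 differences of named genes with an adjusted p of 0.05 or more did under at least 1 setting, among them Cd274 (-0.24) and Cd3e (-0.07) in NonResponder arrays alone with title series as a term, and Hgf (-0.17) in the larger title series. No array of either group reached a mean of 8 for adipocyte genes, so that alternative removed none. No paired analysis was possible because the replicate numbers only follow accession order and the labels carry none. The values carry no detection call, so how far dim probe sets limit the smaller differences was tested only by the filter at a mean of 6.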
